A study of Mus musculus with 5 samples.

Results

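Alveolar type 2 cells that were not dividing were taken from single-cell RNA sequencing of whole fetal mouse lungs at E18.5, shortly before birth. Members were chosen by measured UMI counts (unique molecular identifiers, each standing for 1 captured RNA molecule). A cell counted as a member when its barcode held at least 500 genes, at most 15% mitochondrial UMIs and at least 3 of 6 type 2 markers. The markers were Lamp3, Slc34a2, Abca3, Cxcl15, Etv5 and Sftpd, and Epcam, an epithelial adhesion molecule, was also required. At most 2 of the 5 type 1 genes Ager, Rtkn2, Akap5, Aqp5 and Clic5 were allowed, no UMI of Ptprc, Cdh5, Pecam1 or Pdgfra, and not both division genes Mki67 and Top2a. The rule found 459 cells among 19491 barcodes that passed the filter on genes and mitochondrial share. Of these, 169 came from Het1, 117 from Het2, 58 from KO1, 44 from KO2 and 71 from KO3. Values without a library name follow this order throughout, with the heterozygous libraries before the word against and the knockout libraries after it.

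Each library was made from the dissociated lungs of 1 embryo. Het1 and Het2 were heterozygous (Zswim8+/-), and KO1, KO2 and KO3 were homozygous mutant (Zswim8-/-). All 5 embryos thus carried at least 1 mutant Zswim8 allele, and no wild-type lung was analysed here. Lungs were digested with collagenase and DNase, red cells were lysed, and 3′ libraries were prepared on the 10x Chromium v3.1 chemistry. The part of Zswim8 that was deleted and the strain are not given in the sources used here.

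Alveolar type 2 (AT2) cells are the cuboidal cells of the alveolus that make, store and secrete surfactant, the lipid and protein film that lowers surface tension when breathing begins. They store surfactant in lamellar bodies, and shortly before birth they raise genes for surfactant proteins, lipid synthesis and secreted host-defence proteins such as lysozyme. ZSWIM8 is the substrate receptor of a Cullin-RING ubiquitin ligase that degrades Argonaute proteins bound to certain target RNAs, which exposes the microRNA they carry to decay. MicroRNAs of the miR-322 and miR-503 group, miR-7 and miR-335-3p are known to accumulate when it is lost. The comparison asks how the RNA of AT2 cells differs between lungs with 1 and with no functional copy of Zswim8.

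The marker rule gathered cells of more than 1 kind. In 30, 25, 11, 10 and 10 cells of Het1, Het2, KO1, KO2 and KO3, the UMIs of Scgb1a1 and Scgb3a2, secretoglobins of airway secretory cells, outnumbered those of Sftpc, the surfactant protein C gene. These cells are called airway-type below, and they made up 17.8%, 21.4%, 18.97%, 22.7% and 14.1% of the members. Their median Sftpc level was 3.24, 1.49, 6.51, 2.48 and 2.61 UMIs per 10000, against 1301, 1320, 769, 954 and 950 in the other members. The separation was wide in every library, and 1, 1, 4, 0 and 2 cells lay within 3-fold of the line. All members together are called AT2-marker cells. The split was made after the data were seen, and results that lead are also given without the airway-type cells.

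**Figure D1:**
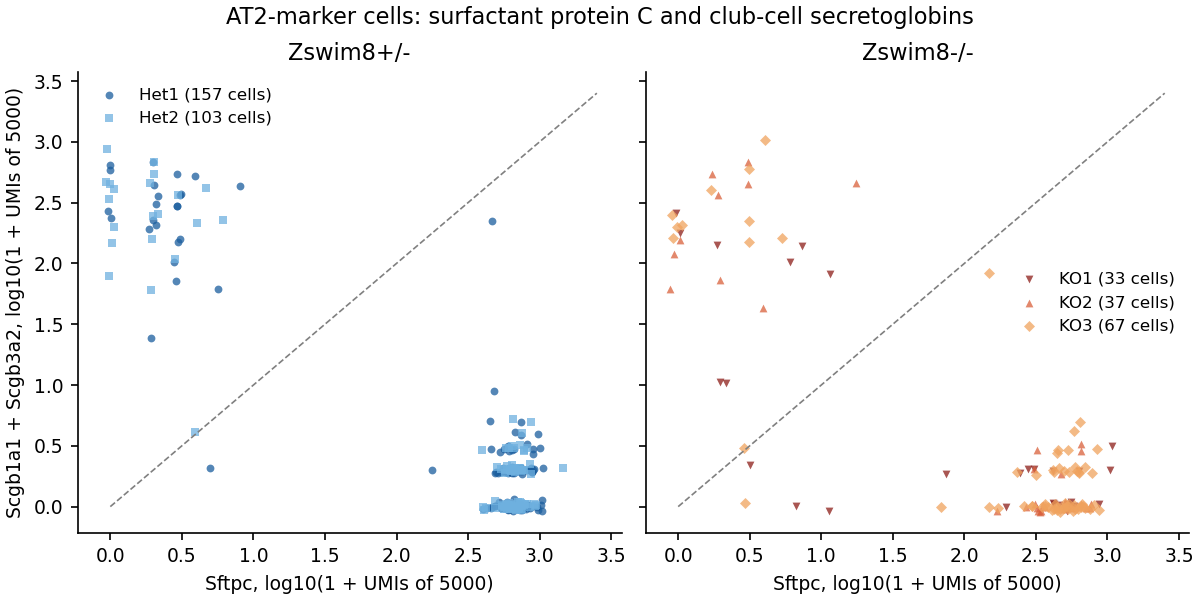
Each point is 1 AT2-marker cell thinned to 5000 UMIs, with Sftpc UMIs on the horizontal axis and summed Scgb1a1 and Scgb3a2 UMIs on the vertical axis, both as log10(1 + UMIs) with slight jitter and 1 panel per genotype. The dashed line marks equal UMIs. Airway-type cells were set on counts before thinning, and nearly all lie above the line, most of them far from the cells rich in Sftpc. A few members of either kind are low in both.

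The 18 genes of the rule are described here without a test, since they chose the cells. Sftpd, surfactant protein D, was found in 93.5% and 98.3% of heterozygous AT2-marker cells against 53.4%, 72.7% and 73.2% of knockout ones. Abca3, the lipid pump of the lamellar body, was found in 86.2% to 100% of the members of every library. Slc34a2, a phosphate transporter, stood at 2456 and 2223 CPM (UMI counts relative to the summed total of a library, scaled by TMM factors) against 1022, 1310 and 1561 CPM. Cxcl15, a secreted chemokine, stood at 5057 and 4332 CPM against 1661, 2500 and 2940 CPM. Cells with exactly 3 markers, just inside the rule, numbered 22, 23, 14, 11 and 9, and 86.4%, 95.7%, 35.7%, 72.7% and 55.6% of them were airway-type. Epithelial cells with 2 markers, just outside it, numbered 32, 21, 22, 18 and 13, and their median Sftpc level was 8.30, 7.29, 7.80, 4.47 and 4.91 UMIs per 10000.

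The members' UMIs summed to 2661357 and 1958634 against 627516, 725093 and 1248097. The median cell held 14410, 15854, 6043.5, 13132 and 14104 UMIs, so cells of KO1 were shallow. Median mitochondrial shares were 5.95% and 5.79% in the heterozygous cells and 8.23%, 8.88% and 7.90% in the knockout cells, without overlap, and the part of RNA quality in the results was not tested. No cell barcode of a member was shared between libraries. By Xist and Y-linked genes Het1, Het2 and KO3 were male and KO1 and KO2 female, so sex and genotype were partly tied together and KO3 was the only male knockout. Summed mesenchymal markers (15 genes) reached 105 and 305 CPM in the heterozygous cells and 338, 283 and 555 CPM in the knockout cells. Endothelial markers stayed between 68.1 and 124 CPM in all 5 libraries. Airway secretory markers summed to 17751 and 19274 CPM against 15874, 14566 and 13996 CPM, without overlap. Scgb1a1 among them fell by 0.74 on the log2 scale (edgeR adjusted p = 0.027). Its UMIs helped to set the airway-type split, so a fit without those cells cannot test this fall. Erythroid markers summed to 20969 and 11777 CPM against 3826, 13302 and 8531 CPM, which overlap, and all 5 tested had a negative log2 fold change (median -1.11) at an unadjusted p under 0.05, none of them called. The part of these cells' RNA in the results was not tested.

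Zswim8 itself (chr14:20707552-20723619 in GRCm38) was read at 39.5 and 37.0 CPM against 39.1, 33.2 and 42.5 CPM. The groups overlapped, with a log2 fold change of 0.01 (SE 0.20, adjusted p = 0.991, edgeR's quasi-likelihood test with Benjamini-Hochberg adjustment). Reads at the 3′ end of a transcript do not show whether a deletion elsewhere in the gene is present, so these levels check nothing on their own.

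Of 9210 genes tested on library sums, 23 were higher in the knockout AT2-marker cells (0.250%) and 64 were lower (0.695%), by edgeR's quasi-likelihood test at a Benjamini-Hochberg adjusted p under 0.05. Of the 64 lower genes 3 were rule genes, Sftpd, Cxcl15 and Slc34a2. Their fits are description only, since they helped to choose the cells. This leaves 61 lower and 23 higher genes outside the rule, 84 in all. Counts of the 87 genes, here and below, include these 3. At an unadjusted p under 0.05, 531 of all genes tested were higher (5.77%) and 546 lower (5.93%), and counts of list members at that p are to be read against these shares. The CPM of the groups did not overlap for any of the 87, and they did not overlap for 28.8% of all genes tested. Without the airway-type cells 69 genes of 7804 were higher (0.884%) and 137 were lower (1.76%). Of the 87 genes, 82 were called there too in the same direction, which is 94.3% of the first set and 39.8% of the second. With sex as a covariate 8 genes were called, among them S100g, Col6a1, Col6a2, Col18a1 and H19, and all 87 genes kept their sign. Leaving out KO2 left 17 calls and leaving out Het1 left 52, and of the 87 genes 50, 35, 15, 71 and 39 lost the call without Het1, Het2, KO1, KO2 and KO3. All 87 kept their sign in these fits. The call held in all 5 of them for 12 genes, of which 11 were outside the rule, among them Retnla, S100g, Fabp12, Il33, Col6a1, Col6a2, Lpl, Pon1, Cbr2 and H19. The calls on Scd1, Fabp5, Gpam, C3, Fbn2 and Mdk, described below, were lost without KO2 and held in the other 4 fits. Those on Fasn, Fn1 and Fbln5 held in 1 of the 5. DESeq2 called neither Fabp5 nor Fbln5.

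**Figure D2:**
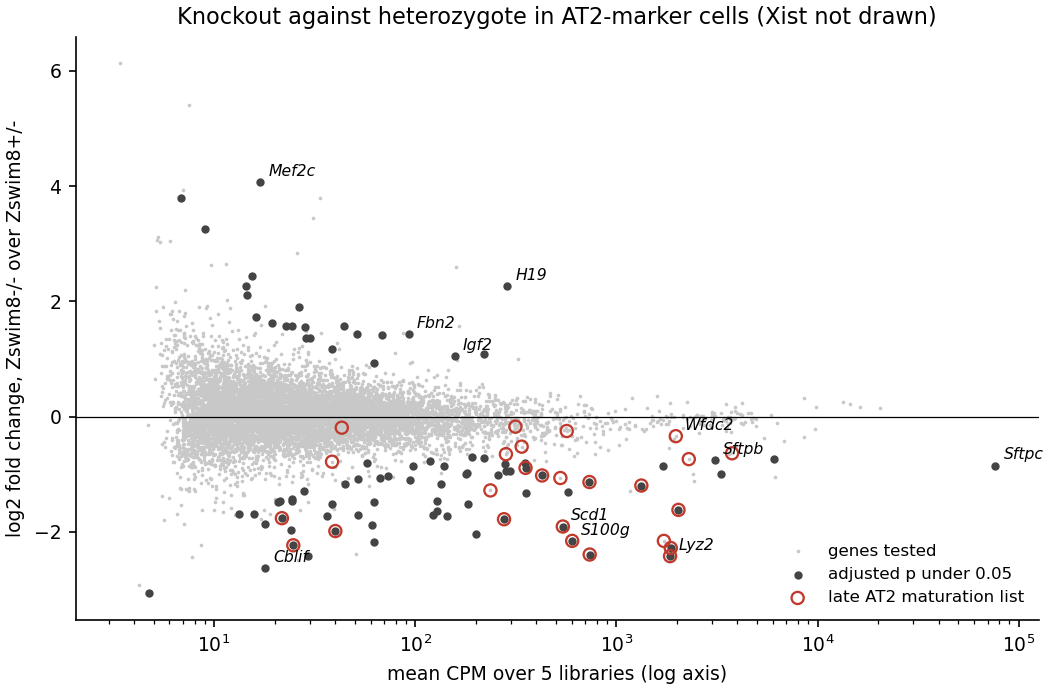
Each point is 1 gene tested in the AT2-marker cells, with mean CPM over 5 libraries on a log axis and the log2 fold change of knockout over heterozygous cells on the vertical axis. Dark points have an adjusted p under 0.05 and red rings mark the late AT2 maturation list, all 26 members of which lie below 0. Xist is not drawn.

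Sftpc, Sftpb and Pla2g1b fell in the knockout cells, 3 of 22 tested genes of the surfactant and lamellar body list, while Sftpc remained the most abundant transcript in all 5 libraries. Sftpc (chr14:70520949-70524081) encodes the hydrophobic surfactant protein C and stood at 107479 and 100950 CPM against 46186, 59260 and 67971 CPM. Every knockout library was below both heterozygous libraries, and the log2 fold change was -0.85 (SE 0.13, edgeR adjusted p = 0.0148). Without the airway-type cells the levels were 145974 and 139024 CPM against 91308, 85428 and 84087 CPM, with a log2 fold change of -0.71. Sftpc UMIs helped to set that split, so these values are description and not a further test. The call on Sftpc was lost without KO2 or without KO3, where the highest edgeR adjusted p over the fits that left out 1 library was 0.132.

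Sftpb (chr6:72304610-72314371), whose product packs surfactant lipid into the lamellar body, stood at 4314 and 3864 CPM against 2087, 2299 and 2862 CPM. It fell by 0.76 on the log2 scale (SE 0.14, edgeR adjusted p = 0.0363), and its groups did not overlap. Pla2g1b, a secreted phospholipase A2, stood at 248 and 267 CPM against 96.2, 124 and 164 CPM and fell by 0.97 on the log2 scale (SE 0.19, edgeR adjusted p = 0.0371). Sftpa1, the collectin surfactant protein A, stood at 5073 and 4492 CPM against 2613, 2917 and 3704 CPM. Its log2 fold change of -0.63 did not pass the test (edgeR adjusted p = 0.0854), but did without the airway-type cells (edgeR adjusted p = 0.0231). edgeR called none of the 22 higher, and the list's median log2 fold change was -0.40 against 0.02 over all genes tested. At an unadjusted p under 0.05, 14 of the 22 were lower and 1 was higher. DESeq2 called 5 of them, each lower: Sftpc, Sftpb, Pla2g1b, Sftpa1 and Lpcat1. Of 21 tested without the airway-type cells, 6 fell.

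Of the 26 genes of the late AT2 maturation list 14 fell and none rose. All 26 were tested, and all had a negative log2 fold change. At an unadjusted p under 0.05, 23 were lower and none higher. DESeq2 also called 14, each lower, among them Dlk1, Sftpa1 and Lgi3 but not Lyz2, Chil1 or Fabp5. The median log2 fold change was -1.16, against 0.02 over all genes tested. Without the airway-type cells 18 fell and the median was -1.27. With sex as a covariate 1 member was called, and without KO2 5 were. The list is not a pure reading of AT2 maturation, and its member Dlk1 is also in the imprinted growth list used below. Cbr2, Trf and Dcxr were found in a smaller share of thinned cells in every library once airway-type cells were left out.

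Lyz2 and Chil1 were among the members that fell furthest. Lyz2 (chr10:117277331-117282321), a lysozyme that breaks bacterial cell walls, stood at 3164 and 4074 CPM against 216, 604 and 1186 CPM. The groups were apart by more than 2-fold at their nearest libraries, and the log2 fold change was -2.42 (SE 0.45, edgeR adjusted p = 0.0355). Its call was lost without KO2, and DESeq2 gave an adjusted p of 0.132. Lyz1, its near-identical neighbour, from which reads may be miscounted, stood at 3957 and 2513 CPM against 236, 235 and 1671 CPM. The knockout embryos were unequal for Lyz1, and the log2 fold change of -2.15 did not pass the test (SE 0.64, edgeR adjusted p = 0.199).

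Chil1 (chr1:134182176-134190181), a secreted chitinase-like protein, stood at 1460 and 1418 CPM against 104, 264 and 437 CPM. It fell by 2.39 on the log2 scale (SE 0.37, edgeR adjusted p = 0.0140), although the call was lost without KO2 and in DESeq2 (adjusted p = 0.0553). Retnla (chr16:48842551-48844461), a secreted resistin-like protein, stood at 3740 and 3386 CPM against 340, 966 and 889 CPM. It fell by 2.28 on the log2 scale (SE 0.31, edgeR adjusted p = 0.0101) and was called whichever library was left out. S100g (chrX:162961992-162964599), the calcium-binding protein calbindin-D9k, stood at 1282 and 981 CPM against 191, 217 and 344 CPM. It had a log2 fold change of -2.15 (SE 0.22, edgeR adjusted p = 0.00186) with no overlap, and was also called whichever library was left out.

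Il33, an epithelial alarm cytokine, stood at 75.7 and 68.7 CPM against 12.0, 29.0 and 14.9 CPM (log2 fold change -1.98, SE 0.27, edgeR adjusted p = 0.00977). Hc, the gene of complement C5, and Chia1, an acidic chitinase, were also called, with log2 fold changes of -1.78 and -1.76. Cbr2, a carbonyl reductase, Trf, the iron carrier transferrin, and Bex4 fell by 1.19, 1.13 and 1.02 on the log2 scale. Beside Lyz1 and Sftpa1, members that missed the threshold were Lcn2, an iron-sequestering lipocalin (-1.28), Bex2 (-1.06), Mlc1 (-0.78), Dlk1 (-0.74), Lgi3 (-0.65), Dcxr (-0.52), Wfdc2 (-0.34), Ppp1r14c (-0.25), Cd74 (-0.19) and Egfl6 (-0.17), in log2 fold change.

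**Figure D3:**
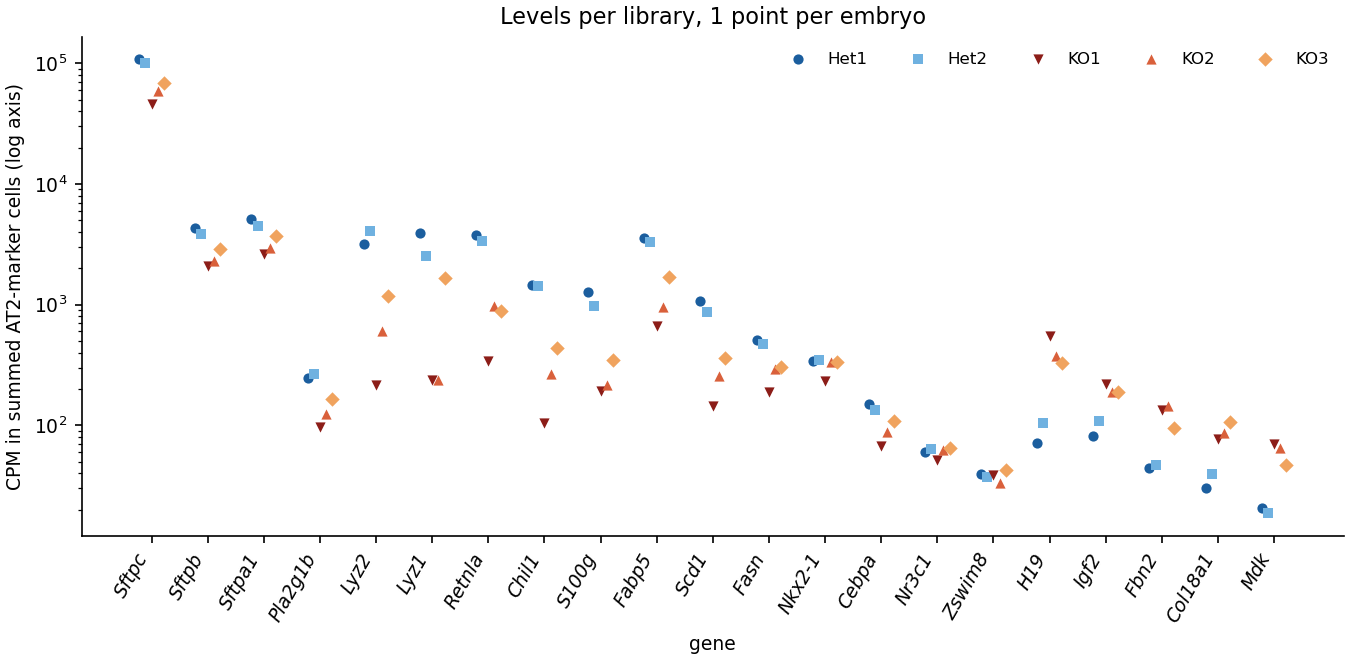
CPM of 21 genes in summed AT2-marker cells on a log axis, with 1 point per embryo, blue for heterozygous and red to orange for knockout libraries. Secreted late genes such as Chil1 and Retnla separate the genotypes by wide gaps, Nr3c1 and Zswim8 overlap, and H19 to Mdk are higher in all 3 knockout libraries.

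Single cells also differed in how many late genes they held. Cells were thinned to 5000 UMIs, which left 157, 103, 33, 37 and 67 cells and dropped 12, 14, 25, 7 and 4 shallower ones in Het1, Het2, KO1, KO2 and KO3. The mean number of late genes with a UMI was 16.6 and 15.98 of 26 against 10.7, 12.1 and 13.2. The library means did not overlap, 16.3 ± 0.47 against 12.0 ± 1.27 (SD over 2 and 3 libraries), and the difference of -4.32 gave p = 0.1 in a two-sided exact permutation test, the smallest p that 2 against 3 libraries allow. The list was chosen with earlier results of these data known, so this p does not test a list fixed in advance. Without the airway-type cells the means were 18.49 and 18.2 against 12.5, 14.5 and 14.3. Airway-type cells held 6.46, 6.85, 5.78, 5.40 and 7.10 late genes, so they form the lower group of cells in each library.

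**Figure D4:**
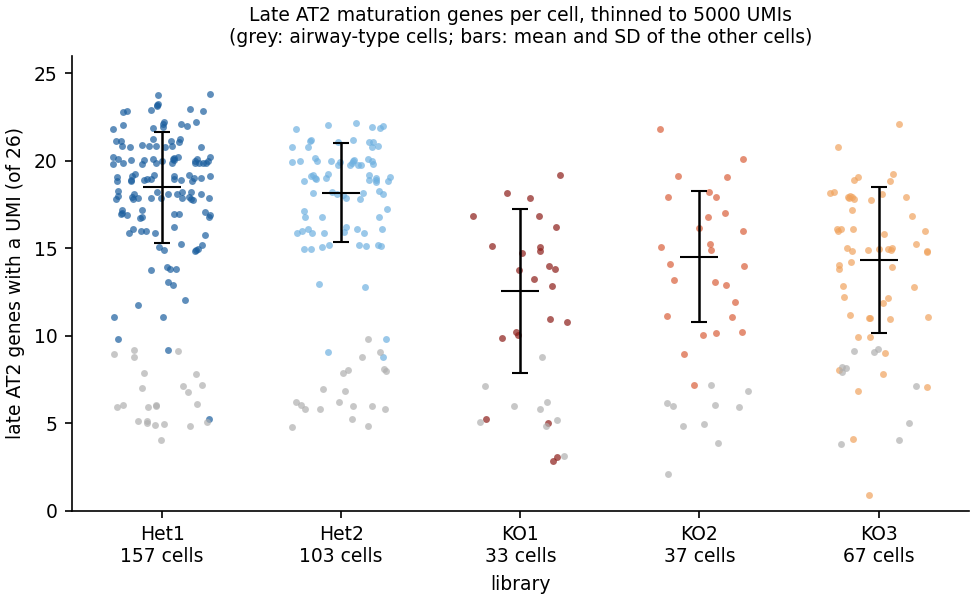
Late AT2 maturation genes with a UMI per cell, of 26, after thinning to 5000 UMIs, with 1 jittered point per cell and 1 column per embryo. Grey points are airway-type cells, and the bars give the mean and SD over the other cells, 18.49 and 18.2 for the heterozygous and 12.5, 14.5 and 14.3 for the knockout embryos.

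The spread between cells was wider in each knockout library, a difference that was not tested. Without the airway-type cells the SD among cells was 3.16 and 2.82 late genes against 4.68, 3.76 and 4.17. Cells with under 10 late genes numbered 2 of 133, 2 of 83, 4 of 24, 2 of 27 and 7 of 57. Chil1 was present in 84.7% and 90.3% of thinned AT2-marker cells against 18.2%, 40.5% and 55.2%. Without thinning the shares were 89.3%, 93.2%, 32.8%, 68.2% and 69.0%. Endothelial barcodes with Cdh5, which should lack Chil1, held it in 17.2%, 15.8%, 2.52%, 6.16% and 7.44%, so this background was itself higher in the heterozygous libraries. S100g was present in 75.2% and 69.9% against 33.3%, 43.2% and 44.8% of thinned cells, each above its share in Cdh5 barcodes of the same library. The Cdh5 barcodes were not thinned, and 45.6%, 47.3%, 24.3%, 31.6% and 41.1% of them held Lyz2. AT2-marker cells held it in 72.2%, 70.1%, 46.6%, 36.4% and 57.7% without thinning and in 55.4%, 54.4%, 24.2%, 29.7% and 43.3% thinned. With background that high, Lyz2 gives no clear reading of this kind.

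Promoters are shown for Lyz2, Retnla and S100g, which fell by over 2 on the log2 scale and hold a motif of NKX2-1 or C/EBP, transcription factors known to drive AT2 genes. RefSeq gives 300 bases, from 250 before to 50 after the start, for 10 of the 14 late genes that fell, in build GRCm38.p6. Capitals mark CAAGTG, the NKX2-1 core, or TTGCNNAA, a C/EBP motif, either strand, and the motifs do not overlap each other here. They lie at chr10:117282223-117282522 (minus strand), chr16:48842359-48842658 (plus strand) and chrX:162964550-162964849 (minus strand).
Lyz2: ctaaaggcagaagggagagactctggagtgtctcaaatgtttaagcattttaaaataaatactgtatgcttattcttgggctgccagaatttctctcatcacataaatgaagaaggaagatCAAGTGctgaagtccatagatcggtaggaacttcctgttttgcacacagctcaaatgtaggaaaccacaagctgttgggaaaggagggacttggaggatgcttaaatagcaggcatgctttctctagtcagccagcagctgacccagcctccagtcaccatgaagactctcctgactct
Retnla: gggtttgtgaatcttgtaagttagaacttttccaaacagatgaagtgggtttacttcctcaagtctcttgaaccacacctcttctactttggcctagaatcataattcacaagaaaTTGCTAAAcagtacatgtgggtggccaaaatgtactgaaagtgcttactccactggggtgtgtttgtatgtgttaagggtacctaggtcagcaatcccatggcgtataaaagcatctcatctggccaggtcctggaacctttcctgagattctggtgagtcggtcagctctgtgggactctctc
S100g: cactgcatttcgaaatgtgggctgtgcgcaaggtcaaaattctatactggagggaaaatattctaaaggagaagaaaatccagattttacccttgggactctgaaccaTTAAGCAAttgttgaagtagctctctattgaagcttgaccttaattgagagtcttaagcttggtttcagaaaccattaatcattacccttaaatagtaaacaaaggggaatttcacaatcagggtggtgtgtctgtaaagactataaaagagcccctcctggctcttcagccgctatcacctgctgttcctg
CAAGTG was found in the promoters of Lyz2 and Bex4, 2 of 10, and in 13.5% of 27025 promoters of the same length. TTGCNNAA was found in those of Retnla and S100g, 2 of 10, and in 10.8% of all promoters. A match is only a run of letters in this window.

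Of 24 tested genes of the fatty acid synthesis list 4 fell and none rose. At an unadjusted p under 0.05, 10 were lower and none higher, and DESeq2 called Fasn, Scd1 and Gpam, each lower. Scd1 (chr19:44394455-44407879), which desaturates fatty acids, stood at 1074 and 869 CPM against 144, 257 and 364 CPM and fell by 1.91 on the log2 scale (SE 0.27, edgeR adjusted p = 0.0101). Fabp5, a fatty acid binding protein, stood at 3545 and 3300 CPM against 671, 954 and 1707 CPM and fell by 1.62 (SE 0.28, edgeR adjusted p = 0.0252). Gpam, the mitochondrial acyltransferase that begins glycerolipid synthesis, stood at 207 and 198 CPM against 73.7, 84.4 and 106 CPM. All 3 knockout libraries were below both heterozygous libraries in each of these genes, and Gpam fell by 1.17 on the log2 scale (SE 0.16, edgeR adjusted p = 0.0101). Fasn, fatty acid synthase, stood at 505 and 474 CPM against 189, 292 and 307 CPM (log2 fold change -0.89, SE 0.18, edgeR adjusted p = 0.0491). These were the 4 genes that fell, and Scd1, Fabp5 and Fasn are also members of the late list. Fabp12, another fatty acid binding protein of the late list, fell by 2.23 on the log2 scale (SE 0.29, edgeR adjusted p = 0.00943).

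No gene of the lists for sterol synthesis, phosphatidylcholine synthesis and glycogen passed the edgeR test. For 22 sterol synthesis genes, 15 genes of the synthesis of phosphatidylcholine, the main surfactant lipid, and 17 glycogen genes the median log2 fold changes were -0.04, -0.14 and -0.20. At an unadjusted p under 0.05 the lists had 2 higher, 3 lower and 1 lower genes in that order, and DESeq2 called only Lpcat1, a remodelling acyltransferase of phosphatidylcholine, among them.

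C3, C6, Cblif and Col6a1 were named for the size of their fall, and Col6a2 for its class term against all other barcodes. None of these genes belongs to a list tested here. C3, the central complement protein, stood at 100.2 and 140 CPM against 13.5, 16.6 and 40.9 CPM (log2 fold change -2.17, SE 0.31, edgeR adjusted p = 0.0104). C6, a component of the membrane attack complex, stood at 72.8 and 42.4 CPM against 4.51, 15.2 and 11.8 CPM (log2 fold change -2.41, SE 0.36, edgeR adjusted p = 0.0106). Cblif, the cobalamin binding intrinsic factor, stood at 44.5 and 29.0 CPM against 0, 8.30 and 7.86 CPM (log2 fold change -2.62, edgeR adjusted p = 0.0271).

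Col6a1 stood at 388 and 347 CPM against 84.2, 65.0 and 113 CPM, and Col6a2 at 213 and 219 CPM against 61.6, 69.2 and 75.5 CPM. These chains of a pericellular collagen fell by 2.04 (SE 0.19) and 1.63 (SE 0.15) on the log2 scale, each at an edgeR adjusted p of 0.00137. Both kept the call whichever library was left out and had the lowest adjusted p of the 9210 genes tested.

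Few transcription factors of the lung epithelium passed the test. Nkx2-1, the master factor of lung epithelium, stood at 342 and 348 CPM against 233, 336 and 335 CPM (log2 fold change -0.19, SE 0.17, edgeR adjusted p = 0.695). Cebpa, which drives AT2 maturation, stood at 149.8 and 134 CPM against 67.7, 88.5 and 109 CPM. All 3 knockout values of Cebpa were lower, but the log2 fold change of -0.65 did not pass the test (SE 0.18, edgeR adjusted p = 0.154). Nr3c1, the glucocorticoid receptor that receives the hormonal signal for lung maturation, stood at 59.9 and 63.3 CPM against 51.1, 62.2 and 64.5 CPM, and its groups overlapped. Its log2 fold change was -0.04 (SE 0.17, edgeR adjusted p = 0.978), and edgeR and DESeq2 called none of 20 tested glucocorticoid response genes (median log2 fold change -0.15, 4 lower and none higher at an unadjusted p under 0.05). With airway-type cells left out edgeR called 3 of the 20, each lower: Lcn2 (log2 fold change -1.19) and the metallothioneins Mt1 (-0.78) and Mt2 (-0.72). With all members the log2 fold changes of Mt1 and Mt2 were -0.08 and 0.55.

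Of 44 tested factors 1 was called. Tead2, a DNA-binding partner of YAP, stood at 5.82 and 3.76 CPM against 18.04, 23.5 and 22.01 CPM and rose by 2.11 on the log2 scale (SE 0.35, edgeR adjusted p = 0.0216). Of 40 factors tested without the airway-type cells, 2 were called higher and 1 lower. Neither edgeR nor DESeq2 called a gene among 17 distal tip progenitor genes (median log2 fold change -0.01), 24 genes of fluid and ion transport (-0.20), 24 of the unfolded protein response (-0.22) or 15 of antigen presentation and interferon response (-0.04). At an unadjusted p under 0.05 they had 3, 0, 1 and 1 higher and 2, 2, 7 and 2 lower genes. In these lists 1 gene was called without the airway-type cells, the metal ion transporter Slc39a8 of the fluid and ion transport list, which was lower (log2 fold change -0.69, edgeR adjusted p = 0.0365). Of 31 dissociation stress genes 1 fell, the heat shock gene Hspa1a (log2 fold change -1.86, edgeR adjusted p = 0.0223). Without the airway-type cells it was not called (edgeR adjusted p = 0.296), and reads of its near-identical copy Hspa1b may be miscounted.

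H19 had the clearest rise. H19 (chr7:142575529-142578143), an imprinted long noncoding RNA that hosts miR-675 and is abundant in fetal tissue, stood at 71.1 and 104 CPM against 553, 375 and 329 CPM. Each knockout library held over 3 times the higher heterozygous value, and the log2 fold change was 2.26 (SE 0.24, edgeR adjusted p = 0.00186). Airway-type cells held 89.5%, 75.1%, 74.2%, 64.9% and 74.7% of its UMIs, so most H19 in the members came from them. In the other members it stood at 10.2 and 35.5 CPM against 283, 189.8 and 103 CPM (log2 fold change 3.04, SE 0.44, edgeR adjusted p = 0.00227).

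Igf2 (chr7:142650766-142666816), the fetal growth factor of the same imprinted domain, stood at 81.5 and 109 CPM against 218, 188 and 188 CPM. It rose by 1.06 on the log2 scale (SE 0.17, edgeR adjusted p = 0.0148), and by 1.39 without the airway-type cells (edgeR adjusted p = 0.0175). These were the 2 of 27 tested insulin-like growth factor and imprinted growth genes that edgeR called. H19 was the 1 it called of 17 tested trigger and host transcripts of microRNAs. At an unadjusted p under 0.05 the lists had 8 and 3 higher and 5 and 3 lower genes. DESeq2 called 2 higher and 2 lower in the growth gene list (H19, Igf2, Dlk1 and Meg3). In the trigger and host list it called 2 higher and 1 lower (H19, Meg3 and Dleu2).

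Genes of elastic fibres and basement membranes included several that rose. Fbn2 (chr18:58008623-58210487), fibrillin-2 of fetal microfibrils, stood at 44.1 and 46.7 CPM against 134, 144 and 95.1 CPM and rose by 1.43 on the log2 scale (SE 0.20, edgeR adjusted p = 0.0101). Col18a1, a basement membrane collagen, stood at 30.4 and 39.2 CPM against 76.7, 87.1 and 107 CPM and rose by 1.41 (SE 0.20, edgeR adjusted p = 0.0101). Fbln5, an elastic fibre assembly protein, stood at 9.15 and 8.58 CPM against 22.6, 22.1 and 34.6 CPM (log2 fold change 1.62, edgeR adjusted p = 0.0363). In all 3 genes the knockout libraries lay above the heterozygous ones. With Mfap4 they were the 4 of 34 tested genes of the list that rose, and none fell (median log2 fold change 0.49), and 12 of the 34 were higher and none lower at an unadjusted p under 0.05. Mfap4, a microfibril protein of mesenchyme, rose by 2.27 on the log2 scale, but 1 cell held 56.3%, 87.5% and 36.4% of its UMIs in KO1, KO2 and KO3. Mfap4 is also 1 of the 15 mesenchymal markers, whose summed level without airway-type cells was 107 and 376 CPM against 207, 340 and 654 CPM. The groups overlapped in that sum, 11 to 14 of the 15 markers had a UMI in each library, and Lum was at 0 in Het1, Het2 and KO1. Of the 9 mesenchymal markers tested 8 had a positive log2 fold change, with a median of 1.18, and 1 was called, Mfap4. Of 8 tested without the airway-type cells 3 were called, Mfap4, Tagln and Acta2, each higher, with a median of 1.40. The part of mesenchymal RNA in these rises was not tested.

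Mdk, Fn1 and Notch3 rose from low levels. Mdk, the heparin-binding growth factor midkine, stood at 20.8 and 18.8 CPM against 70.7, 65.0 and 47.2 CPM and rose by 1.58 on the log2 scale (SE 0.23, edgeR adjusted p = 0.0106), and by 2.51 without the airway-type cells. Fn1, fibronectin, stood at 15.8 and 15.6 CPM against 36.1, 33.2 and 48.7 CPM (log2 fold change 1.36, edgeR adjusted p = 0.0345). With all members, Mdk and Fn1 were the 2 of 22 tested damage-associated transitional genes that rose, and none fell. Without the airway-type cells 5 of the 22 rose and 1 fell. Notch3, a Notch receptor, stood at 12.9 and 7.51 CPM against 30.1, 31.8 and 31.4 CPM and rose by 1.57 on the log2 scale (edgeR adjusted p = 0.0307). Mdk and Notch3 were also the 2 called of 49 tested genes for signals to and from AT2 cells.

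Fhl1, a LIM domain protein, rose by 1.57, Antxr1, a receptor for collagen fragments, by 1.73 and Col15a1, a basement membrane zone collagen, by 2.43 on the log2 scale, at edgeR adjusted p of 0.0216, 0.0455 and 0.0329. Mef2c, a transcription factor of muscle and endothelium, had a log2 fold change of 4.07 (edgeR adjusted p = 0.0363) but rested on single cells. Its level was 1.66 and 1.61 CPM against 3.01, 37.3 and 40.9 CPM, and 1, 1 and 3 cells held all its UMIs in KO1, KO2 and KO3.

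Genes of alveolar type 1 (AT1) cells, the flat gas-exchange cells, passed the test in 1 of 31 cases outside the rule. That gene was Fbln5, the median log2 fold change was 0.35, and 13 of the 31 were higher and none lower at an unadjusted p under 0.05. Of 30 tested without the airway-type cells 2 were called, Fbln5 and the caveolin gene Cav2, both higher. Neither edgeR nor DESeq2 called any of 20 tested DNA replication genes or 28 mitosis genes (2 and 2 higher, 1 and 0 lower at an unadjusted p under 0.05), with medians of 0.26 and 0.14, in cells from which the rule had removed those with both Mki67 and Top2a.

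**Figure D5:**
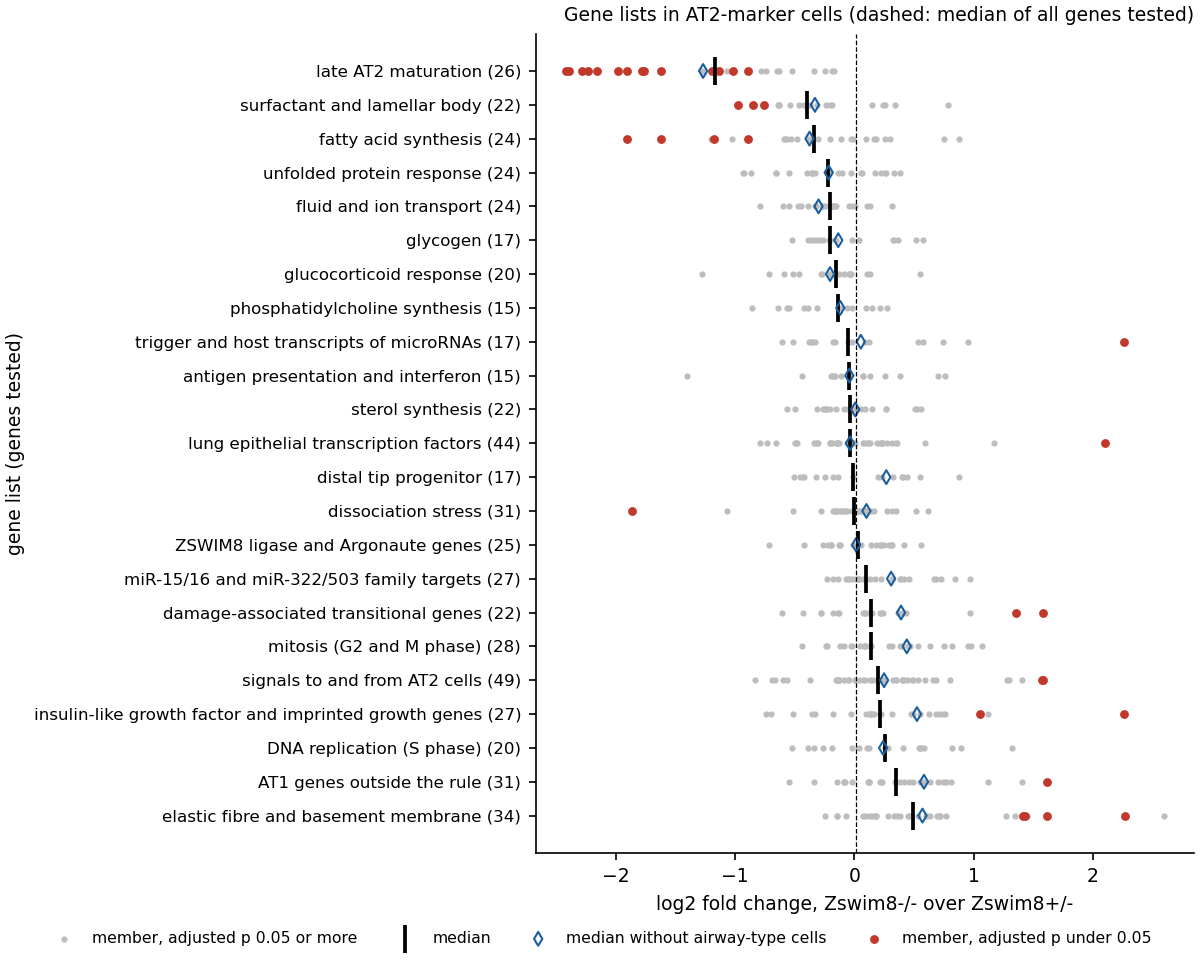
Log2 fold changes of the tested genes of 23 lists in the AT2-marker cells, with 1 point per gene, red where the edgeR adjusted p is under 0.05. Black bars are list medians, blue diamonds the medians without airway-type cells and the dashed line the median of all 9210 genes. The late AT2 list lies furthest to the left, with a median of -1.16.

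The microRNAs known to accumulate without ZSWIM8 are shown by their mature sequences from RefSeq (GRCm38.p6), and mmu-miR-16-5p is added for its seed. Targets are read from bases 2 to 8, the seed, given in capitals. The libraries capture polyadenylated transcripts and do not measure these microRNAs.
mmu-miR-322-5p: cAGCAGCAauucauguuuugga
mmu-miR-16-5p: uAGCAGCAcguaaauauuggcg
mmu-miR-503-5p: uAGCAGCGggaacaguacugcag
mmu-miR-7a-5p: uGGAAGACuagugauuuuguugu
mmu-miR-335-3p: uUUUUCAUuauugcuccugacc
mmu-miR-322-5p and mmu-miR-16-5p have the same seed and so the same site, TGCTGCT, which was present in a 3′ UTR of 2281 tested genes. Of these 4 rose and 13 fell, and their median log2 fold change was 0.03, against 22 that rose, 62 that fell and a median of 0.01 among all 8969 tested genes with a 3′ UTR. Genes with the site of mmu-miR-503-5p, CGCTGCT, numbered 458, of which 4 were called, each lower, with a median of 0.01. The site of mmu-miR-7a-5p, GTCTTCC, was present in 1288 genes (6 rose, 8 fell, median 0.01) and that of mmu-miR-335-3p, ATGAAAA, in 1875 (7 rose, 8 fell, median 0.03). All these medians lay within 0.03 of that of all genes with a 3′ UTR. Oip5os1 (Cyrano), the noncoding RNA that triggers decay of miR-7, stood at 60.3 and 54.7 CPM against 46.6, 56.7 and 49.5 CPM (log2 fold change -0.18, edgeR adjusted p = 0.732). None of 25 tested genes of the ZSWIM8 ligase and Argonaute list or of 27 listed targets of miR-15, miR-16, miR-322 and miR-503 was called by edgeR or DESeq2. At an unadjusted p under 0.05 the lists had 2 and 7 genes, each of them higher. Among 24 listed targets tested without the airway-type cells 2 were called, both higher, Ccnd2, a cyclin, and Igf1r, the insulin-like growth factor receptor, and the list's median log2 fold change was 0.31 against 0.10 with these cells.

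The difference in AT2-marker cells was set against that in AT1-marker cells of the same lungs, of which there were 114, 116, 37, 46 and 63. The genotype by class term of edgeR, with library as a block, was called for 6 of 9014 genes (0.0666%). Sftpc went in opposite directions, lower in the knockout AT2-marker cells and higher in the AT1-marker cells, where it stood at 1536 and 1031 CPM against 2447, 4079 and 3595 CPM. The change in AT1-marker cells was 1.40 on the log2 scale (SE 0.22, edgeR adjusted p = 0.0373). The difference between the changes was -2.21 (SE 0.18, edgeR adjusted p = 0.000452). Sftpc UMIs were also present in 85.5%, 74.8%, 87.2%, 62.8% and 74.4% of endothelial barcodes with Cdh5. The part of free RNA in the Sftpc level of AT1-marker cells was not tested. Fbln5 rose in AT2-marker cells while AT1-marker cells held 407 and 339 CPM against 181, 199 and 289 CPM (difference 2.35, edgeR adjusted p = 0.0064). For Fbn2 no difference was called, and AT1-marker cells also rose, from 154 and 151 CPM to 476, 415 and 507 CPM (difference -0.15, edgeR adjusted p = 0.966).

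Against all other barcodes that passed the quality filter the term was called for 278 of 16764 genes (1.66%). Lyz2 and Col6a1 differed, with a change in AT2-marker cells lower by 2.21 and by 2.24 on the log2 scale (differences -2.21 and -2.24, edgeR adjusted p = 1.94e-06 and 2.99e-11). Fabp5 differed by -0.97 (edgeR adjusted p = 0.0121) and H19 by 0.98 (edgeR adjusted p = 0.000323). Retnla and Scd1 fell in the other barcodes too, by 2.19 and 1.85 on the log2 scale, with no called difference from AT2-marker cells (edgeR adjusted p = 0.777 and 0.844). S100g and Chil1 likewise fell there by 1.82 and 1.94, with no called difference (edgeR adjusted p = 0.351 and 0.0995). Endothelial barcodes held UMIs of Chil1 and S100g too, as given above for Chil1, and the part of free RNA in these changes was not tested.

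AT2-marker cells made up a smaller share of each knockout library than of either heterozygous one. They were 3.51% and 2.78% of barcodes past the filter against 1.85%, 1.32% and 1.77%. Wilson 95% intervals, which cover counting error only, ran from 3.02% to 4.06% and 2.33% to 3.33% against 1.44% to 2.39%, 0.988% to 1.77% and 1.40% to 2.23%. The means were 3.14% ± 0.51 and 1.65% ± 0.28 (SD over libraries), with no overlap and p = 0.1 in a two-sided exact permutation test, the smallest the design allows. Of barcodes with an Epcam UMI the shares were 17.8% and 15.8% against 12.3%, 9.30% and 10.9% (exact permutation p = 0.1). When all barcodes were thinned to 2500 UMIs before the rule was applied the shares of all barcodes were 3.09%, 1.85%, 1.98%, 1.17% and 2.14%, and the groups overlapped (exact permutation p = 0.5). Some rule markers, such as Sftpd, stood lower in the knockout cells, while the detection of Lamp3 and Etv5 overlapped between genotypes. In a share set by a marker rule, fewer cells and lower markers cannot be told apart.

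Dividing cells among those that met the rest of the rule were few. After thinning to 5000 UMIs, cells with both Mki67 and Top2a were 1 of 160 in Het1 and 0 of 108 in Het2, which allows a share of up to 2.78%, against 4 of 41, 2 of 46 and 4 of 78 in KO1, KO2 and KO3. These are shares of 0.625% and 0% against 9.76%, 4.35% and 5.13%, a difference of 6.10 percentage points, given without a test because the rule used both genes. Without thinning the shares were 1.74% and 4.88% against 13.4%, 17.0% and 14.5%. All 3 knockout shares were higher in both readings, on 11 cells in all in the thinned one.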

How the data were processed

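The deposited matrices hold UMI counts per gene and barcode for 5 libraries, and per the submitters' processing notes the authors used Cell Ranger 4.0.0 with mm10. The annotation release is not given in the sources used here. Of 32285 gene IDs, 32158 matched GENCODE M21 (GRCm38), which gave coordinates and 3′ UTRs. UMIs of the members were summed per library, since cells are not replicates, and genes that passed filterByExpr were tested with edgeR 4.0.16 (quasi-likelihood, TMM scaling, two-sided, Benjamini-Hochberg over all genes tested) in R 4.3.3. CPM are TMM-normalised. The 18 rule genes were fitted but only described. Class terms used library by class sums with library as a block. Shares and late genes per cell were compared over libraries by exact permutation, in Python 3.11.15 with scipy 1.17.1. In counts simulated with log2 changes of 1 for some genes, the AT2-marker test recovered 71 of 194 changed genes with 9 false calls. With no change simulated it made 3 false calls. The AT1 class term recovered 19 of 200 with 5 false calls, and the term against all other barcodes 47 of 200 with 3. Genes that were not called may therefore still differ. Library totals were 56608582 to 93708304 UMIs. UMI counts limit precision most for genes under 20 CPM, above all in KO1 and KO2.

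The members and gene lists were chosen with earlier results of these data known. Named genes had an adjusted p under 0.05, no overlap, at least 20 CPM in the higher group and 3 times the level of red-cell barcodes. The 10 largest changes per direction, up to 4 per list and direction, 5 per class term and direction, and 12 preset genes were named, with other list members given by value. A gene that met this rule is not reported here. Doublets were scored by simulation (0.8% per 1000 barcodes) and left out as an alternative, as were other filters, scalings, DESeq2 1.42.0, sex, thinning and each library in turn. Embryos are the replicates. The test against cycling AT2-marker cells was not run, since no library had 30 of them.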

Additional observations from a re-analysis of the deposited data

Results flagged for a closer look

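The change between genotypes in AT2-marker cells differed from that in another class of the same lungs for 6 genes against AT1-marker cells and 278 against all other barcodes, by the edgeR genotype by class term at an adjusted p under 0.05. The 13 differences given first met the naming conditions in the AT2-marker sums (no overlap, at least 20 CPM in the higher group, 3 times the red-cell level), with up to 5 per direction and class. Against AT1-marker cells these were Mgp, an inhibitor of calcification, with a difference of 3.62 on the log2 scale, Fbln5 with 2.35 and Sftpc with -2.21. Mgp stood at 19.1 and 68.7 CPM against 87.2, 139.7 and 121 CPM in AT2-marker cells, where 1 cell held 70.7%, 85.1% and 44.2% of its UMIs in KO1, KO2 and KO3. The difference for Fbln5 lost its call without KO3 (edgeR adjusted p = 0.124). The other 3 called genes did not meet these conditions and are named after their values were seen: Upk3b, with a difference of -4.76 (edgeR adjusted p = 0.0064), Eln, the elastin gene, with 4.55 (edgeR adjusted p = 0.0243) and Col1a2, a chain of type I collagen, with 2.80 (edgeR adjusted p = 0.0331). In AT1-marker cells Upk3b stood at 0.984 and 90.4 CPM against 7.10, 46.1 and 70.4 CPM, which overlap. Col1a2 stood there at 28.5 and 516 CPM against 46.2, 33.4 and 144 CPM, which also overlap. Mgp stood there at 88.6 and 385 CPM against 28.4, 36.5 and 81.8 CPM. Het2 was the higher heterozygous library for all of these. Within AT1-marker cells alone edgeR called none of Upk3b, Eln, Col1a2 and Mgp. Upk3b was not among the genes tested within AT2-marker cells.

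Against all other barcodes the largest positive differences were those of Mef2c (3.61), Acta2 (3.07), a smooth muscle actin, and Cfap53 (2.57), Ccna1 (2.23) and Ccdc153 (2.13), which ciliated cells express. Acta2 stood at 5.82 and 3.76 CPM against 16.5, 19.4 and 109 CPM, and 1 cell held 45.5%, 85.7% and 77.7% of its UMIs in the knockout libraries. The summed level of 11 ciliated markers was 669.6 and 601 CPM against 1450, 742 and 791 CPM. Their part in these differences was not tested.

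The largest negative differences were those of Col6a1 (-2.24), Lyz2 (-2.21), Col6a2 (-1.94), Ctnnal1 (-1.80), which encodes an alpha-catulin, and Gcat (-1.77), a threonine breakdown enzyme. Of the genes given first, 6 did not pass the test within AT2-marker cells alone: Acta2, Ctnnal1, Mgp, Ccna1, Ccdc153 and Cfap53, at edgeR adjusted p of 0.065, 0.0793, 0.137, 0.155, 0.209 and 0.346.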

How the results depend on the processing

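Depth and embryo number limit these results: 44 to 71 cells per knockout library, 2 heterozygous embryos, and sex partly tied to genotype. The count of 87 called genes became 378 without a low-count filter, 206 without airway-type cells, 50 with at least 4 markers, 31 under a stricter filter of 1000 genes and 10% mitochondrial UMIs and 8 with sex as a covariate. In cells with no AT1 marker edgeR called 0 of 651 genes tested (35 at an unadjusted p under 0.05). That setting held only 14, 8, 12, 3 and 5 cells, since Ager had a UMI in 69.0% to 90.6% of the members of each library. With so few cells it cannot show whether the changes are absent there. With each library left out it was 17 to 101, and without airway-type cells 84 to 331 (238 without KO1). DESeq2 called 88. Library size alone called 59 (27 higher) and moved the median of all genes to 0.16 on the log2 scale.

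The late list had 14 called genes, and 22 without the low-count filter, 0 in cells with no AT1 marker, 9 under the stricter quality filter, 1 with sex as a covariate and 5 to 13 with each library left out. The share of AT2-marker cells differed by -0.71 percentage points after thinning to 2500 UMIs. Of Epcam barcodes the difference was -8.03 under the stricter quality filter and -3.87 thinned. The share of cycling cells differed by 2.03 points thinned to 2500 UMIs and 11.6 unthinned. The AT1 class term called 11 genes with doublet scores left out, 19 without airway-type cells and 3 to 54 with each library left out. The other class term called 441 without airway-type cells and 138 to 451 with each library left out.

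Signs reversed only for uncalled genes or in the 651-gene set: Lyz1 (0.52), Sftpa1 (0.23), Gpam (0.11) and Nkx2-1 (0.014) in cells with no AT1 marker. Nr3c1 became 0.109 with library size alone, 0.0063 under the stricter filter, 0.0488 thinned, 0.0671 with sex and -0.111 to 0.0575 with each library left out. Zswim8 became -0.0263 without the low-count filter, -0.0323 with at least 2 markers, -0.0976 under the stricter filter, -0.0865 without mixed cells, -0.311 thinned, -0.0838 with the replicate block and -0.0847 to 0.0977 with each library left out. For the other values of named genes the side of the threshold held in 719, weakened in 192 and strengthened in 30. The causes were not tested. Replicate numbers gave no pairing: deviations of Het1 and KO1 correlated at 0.05 and of Het2 and KO2 at -0.03, and the fit with a replicate block called 107 genes.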

Other observations

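Among the 64 lower genes were further genes of lipid handling and oxidant defence, in no list used above and chosen after their values were seen. Lpl, lipoprotein lipase, stood at 96.9 and 108 CPM in the heterozygous libraries against 31.6, 33.2 and 41.7 CPM in the knockout libraries (log2 fold change -1.49, SE 0.18, edgeR adjusted p = 0.00404). Scp2, a peroxisomal sterol carrier protein, stood at 554 and 562 CPM against 173, 192 and 297 CPM (log2 fold change -1.32, edgeR adjusted p = 0.0111). Apoc1, an apolipoprotein, and Soat1, which esterifies cholesterol, fell by 1.11 and 0.81 on the log2 scale (edgeR adjusted p = 0.0101 and 0.0369). Gpx1, glutathione peroxidase 1, stood at 404 and 387 CPM against 185, 225 and 206 CPM and fell by 0.94 (edgeR adjusted p = 0.0104). Cat, catalase, fell by 0.71 and Idh1, a source of NADPH, by 0.81 (edgeR adjusted p = 0.0491 and 0.0462). Pon1, a lactonase that is also 1 of the airway secretory markers used here, stood at 117 and 101 CPM against 27.1, 22.1 and 36.2 CPM (log2 fold change -1.88, edgeR adjusted p = 0.00186). These 8 genes were also called without the airway-type cells.

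The secreted ribonucleases Rnase4 and Ang, overlapping genes whose reads may not be separable, fell by 1.72 and 1.47 on the log2 scale (edgeR adjusted p = 0.0106 and 0.0455).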
